A study of Mus musculus with 12 samples.

Results

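The 10 astrocyte genes Aldh1l1, Aqp4, Gfap, Slc1a2, Slc1a3, Aldoc, Gja1, S100b, Glul and Apoe were taken by the symbol of their Ensembl gene from the 46603 genes counted in each table, and all 10 were found. They were followed in the neocortex of C57Bl/6J mice of 2 genotypes. Chd8+/+ mice carried both copies of Chd8, which encodes a chromatin remodelling factor. Chd8+/- mice carried 1 inherited null allele that lacks exon 3. It was made by crossing floxed mice with a ubiquitous β-actin-driven Cre line, and the Cre was then bred out. Cortex was microdissected at embryonic day 12.5 (E12.5, both hemispheres) or postnatal day 5 (P5, 1 hemisphere), with 12 libraries that give each genotype 3 at each stage. The labels do not say which libraries, if any, share a litter, and p-values measure only the spread between these libraries.

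Astrocytes take up glutamate and potassium from around synapses, supply neurons with glutamine and lipids, and line blood vessels with their end feet. In the mouse neocortex they are born from radial glia mainly around and after birth, once most neurons have been made. Radial glia already express several of the genes used to mark astrocytes, among them the glutamate transporter Slc1a3, the connexin Gja1 and the enzyme Glul, so that RNA of these genes is not proof of an astrocyte. In whole tissue, fewer cells of a type and less RNA per cell cannot be told apart.

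Between 38774591 and 54695236 reads were counted on genes per library. Chd8 itself was at 229 to 235 CPM (counts per 1000000 counts of the library) in the E12.5 Chd8+/+ libraries and at 161 to 167 in the E12.5 Chd8+/- libraries, and at 145 to 151 and 95.0 to 98.6 at P5, so that each library matched its label. Markers of cortical excitatory neurons summed to 471 to 747 CPM at E12.5 and 1248 to 1351 CPM at P5. Markers of other sources were present too. Those of erythrocytes summed to 2400 to 3247 CPM at E12.5 and 107 to 131 CPM at P5, and those of the meninges to 510 to 1061.5 and 323 to 420 CPM. Those of the choroid plexus summed to 95.5 to 176 CPM at E12.5 and 332 to 587 CPM at P5, and those of striatal medium spiny neurons to 20.1 to 27.7 and 180 to 274.9 CPM. Stage is joined to the dissection and to a count table of its own, and their parts in a difference between E12.5 and P5 cannot be told apart.

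Promoter sequence was available for 9 of the 10 genes, in 12 windows of 250 bases before to 50 bases after a RefSeq start (build GRCm38.p6). STAT and nuclear factor I (NFI) proteins are known activators of astrocyte genes, and their motifs were searched on both strands, with the STAT motif as TTCNNNGAA, the NFI motif as its full palindrome and as its single site TTGGC, and a TATA box as TATAAA. The single site is contained in the palindrome, which is made of 2 of them facing each other. Shown are the genes with the largest rise (Gfap), with the most single NFI sites (S100b), with both a STAT motif and a TATA motif (Slc1a3) and without a call between the stages (Gja1). Each runs from base -250 to base 14 relative to the start, on the strand of the gene, and capitals mark every match.
Gfap, minus strand, chr11:102897187-102897450: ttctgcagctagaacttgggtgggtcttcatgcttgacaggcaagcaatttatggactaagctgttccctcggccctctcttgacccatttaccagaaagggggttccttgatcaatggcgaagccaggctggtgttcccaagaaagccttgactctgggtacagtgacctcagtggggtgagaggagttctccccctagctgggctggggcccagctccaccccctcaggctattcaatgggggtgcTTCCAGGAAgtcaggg
S100b, plus strand, chr10:76253586-76253849: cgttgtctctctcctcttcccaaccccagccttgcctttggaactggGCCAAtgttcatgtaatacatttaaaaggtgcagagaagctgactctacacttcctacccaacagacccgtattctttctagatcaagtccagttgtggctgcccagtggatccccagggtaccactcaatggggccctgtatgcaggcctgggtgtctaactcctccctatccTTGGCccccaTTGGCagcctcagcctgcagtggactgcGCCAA
Slc1a3, minus strand, chr15:8710794-8711057: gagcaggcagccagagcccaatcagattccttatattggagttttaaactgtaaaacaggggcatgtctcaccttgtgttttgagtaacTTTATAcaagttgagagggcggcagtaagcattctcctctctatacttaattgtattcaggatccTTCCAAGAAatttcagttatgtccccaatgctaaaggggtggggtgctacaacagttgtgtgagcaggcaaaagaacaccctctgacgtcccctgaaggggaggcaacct
Gja1, plus strand, chr10:56377050-56377313: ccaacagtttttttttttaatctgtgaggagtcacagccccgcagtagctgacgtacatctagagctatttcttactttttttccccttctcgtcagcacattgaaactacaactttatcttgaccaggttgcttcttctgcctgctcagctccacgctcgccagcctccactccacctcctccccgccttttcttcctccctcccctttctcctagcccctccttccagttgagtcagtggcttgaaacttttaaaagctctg

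A STAT motif was found at bases -2 to 7 of Gfap, at -96 to -88 of Slc1a3 and at -124 to -116 and -83 to -75 of the second of the Aldoc windows. Thus 3 of the 12 windows, among which Apoe has 3 and Aldoc 2, held one, and 8.30% of all 32851 windows did. The single NFI site was in 6 of the 12 windows (of S100b, Glul, Slc1a2, Apoe and Aldoc) and in 46.7% of all windows. S100b carried it 4 times, at -203 to -199, -29 to -25, -19 to -15 and 10 to 14. The NFI palindrome was in 0 of the 12 windows, and in 0.0365% of all windows. A TATA motif was in 2 of the 12 windows, of Slc1a3 and Apoe, against 13.6% of all windows. The Gja1 and Aldh1l1 windows held no match to any of these letters. These windows hold 1 CpG (Slc1a2) to 17 CpG dinucleotides (Glul), with a median of 7 over all windows, and Gfap, S100b and Slc1a3 had 3 each. A match describes the letters of the window alone, and no binding was measured.

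**Figure D1:**
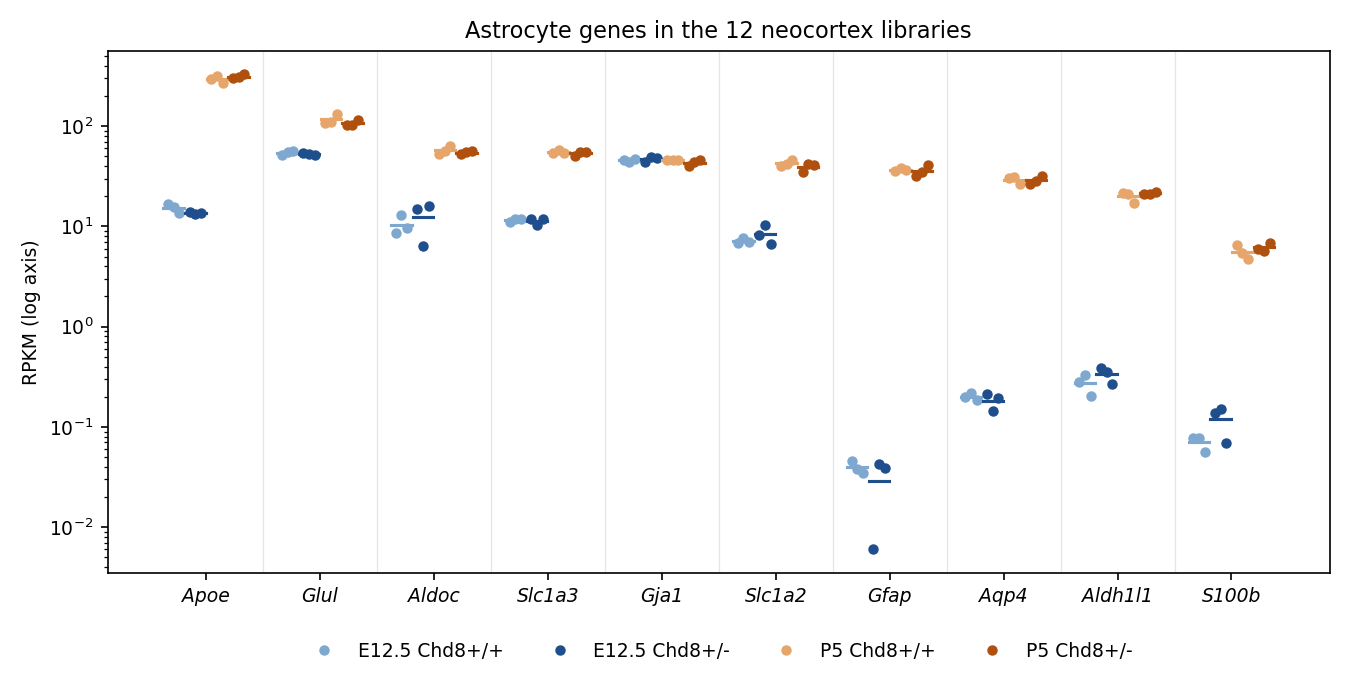
Level of each astrocyte gene in each library (points) and the mean of each group (bars), in CPM per kilobase of exon (RPKM) on a log axis, ordered by the level at P5 in Chd8+/+. At E12.5 the genes fall into 6 at 6.32 RPKM or more and 4 at 0.385 RPKM or less, Gja1 lies at 39.7 to 49.3 RPKM in every library, and the genotypes overlap for every gene.

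The levels of the genes spread over 3 orders of magnitude at E12.5 and drew together at P5. Levels are compared between genes as RPKM, that is CPM divided by the exon length in kilobases. In E12.5 Chd8+/+ neocortex, Glul was highest at 54.4 ± 2.62 RPKM (SD, n = 3), followed by Gja1 at 45.6 ± 1.42, Apoe at 15.4 ± 1.48, Slc1a3 at 11.7 ± 0.479, Aldoc at 10.4 ± 2.19 and Slc1a2 at 7.14 ± 0.385. The other 4 genes were far lower. Aldh1l1 stood at 0.272 ± 0.0641 RPKM, Aqp4 at 0.201 ± 0.0160, S100b at 0.0706 ± 0.0123 and Gfap at 0.0395 ± 0.00563. In this order Slc1a3 and Aldoc overlapped between libraries, as did Aldh1l1 and Aqp4, and the other neighbours did not. Glul and Gja1 were above 96.9% and 96.0% of the genes with a count, and Gfap was above 19.8%.

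At P5 in Chd8+/+, Apoe was highest at 293 ± 25.7 RPKM (SD, n = 3), above 99.7% of genes with a count. Glul followed at 116 ± 14.9, Aldoc at 57.2 ± 5.36, Slc1a3 at 55.7 ± 1.97, Gja1 at 46.1 ± 0.282, Slc1a2 at 42.5 ± 2.80, Gfap at 36.8 ± 1.31, Aqp4 at 29.2 ± 2.40, Aldh1l1 at 19.9 ± 2.51 and S100b at 5.54 ± 0.882. Only Aldoc and Slc1a3 overlapped among these neighbours. In P5 Chd8+/- the order of the means was the same, and Aldoc overlapped Slc1a3, Gja1 overlapped Slc1a2, Slc1a2 overlapped Gfap, and Gfap overlapped Aqp4. Summed over the 10 genes, the level was 142 to 147 RPKM in E12.5 Chd8+/+, 143 to 148 in E12.5 Chd8+/-, 689 to 725 in P5 Chd8+/+ and 665 to 742 in P5 Chd8+/-. Gja1 made up 31.4% of that sum at E12.5 in Chd8+/+ and 6.56% at P5. Apoe, in contrast, went from 10.6% to 41.7%.

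The first comparison asks how these genes changed between E12.5, when progenitors predominate, and P5. Of the 10 genes, 9 rose in Chd8+/+ and Gja1 did not pass the test (edgeR's quasi-likelihood test on all 12 libraries, Benjamini-Hochberg adjusted p under 0.05). Over all 19676 genes tested, 41.4% were called higher and 41.7% lower at P5. The median log2 fold change was 3.41 over the 10 genes and -0.018 over all genes. In Chd8+/- 9 of 10 rose as well, and the median was 3.37, where 41.3% of all genes were called higher and 41.6% lower.

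Gfap, the intermediate filament protein that gives astrocytes their classical stain, changed most. The gene lies at chr11:102887336-102900912 on the minus strand (GRCm38, as in the count tables) and shares no exonic base with another gene. Its counts at E12.5 were 10, 7 and 7 reads in Chd8+/+ and 1, 8 and 8 reads in Chd8+/-, equal to 0.193, 0.161, 0.146, 0.0256, 0.179 and 0.164 CPM. At P5 it stood at 151, 161 and 154 CPM in Chd8+/+ and at 134, 148 and 174 CPM in Chd8+/-. Every P5 library was thus above every E12.5 library by more than 2 orders of magnitude, and the genotypes overlapped at both stages. Summed over the libraries, the ratio of P5 to E12.5 was 924 in Chd8+/+ (95% exact binomial interval 621 to 1442) and 1192 in Chd8+/- (744 to 2046). Both intervals cover counting error only, not the spread between libraries, and the sums at E12.5 were 24 and 17 reads.

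Aqp4, the water channel of astrocyte end feet, lies at chr18:15389394-15403684. It was counted 33 to 53 times in an E12.5 library, at 1.02, 1.10 and 0.941 CPM in Chd8+/+ and 1.07, 0.738 and 0.985 CPM in Chd8+/-. At P5 it reached 155, 157 and 135 CPM in Chd8+/+ and 133, 145 and 161 CPM in Chd8+/-. The stages did not overlap. The log2 fold change was 7.18 ± 0.115 (SE) in Chd8+/+ (edgeR adjusted p = 5.7e-16) and 7.30 ± 0.117 in Chd8+/- (adjusted p = 6.06e-16).

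Aldh1l1, a folate enzyme expressed throughout the astrocyte lineage, lies at chr6:90486427-90600203. Of its exonic bases, 13.4% are shared with 2 predicted genes, Gm15756 and Gm45901, which had at most 6 and 2 counts in a library. Aldh1l1 was at 1.27, 1.49 and 0.920 CPM in the E12.5 Chd8+/+ libraries and at 1.74, 1.59 and 1.21 CPM in the Chd8+/- libraries. At P5 it was at 97.3, 95.2 and 76.7 CPM in Chd8+/+ and at 94.8, 94.5 and 100.1 CPM in Chd8+/-. The library with the lowest P5 value, Chd8+/+ replicate 3, was still far above the highest E12.5 value, 1.74 CPM. The log2 fold change between stages was 6.19 ± 0.142 (edgeR adjusted p = 1.43e-14) in Chd8+/+ and 6.01 ± 0.140 in Chd8+/-.

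S100b, a calcium-binding protein of maturing astrocytes, lies at chr10:76253853-76261159 and was the lowest member at P5. At E12.5 it was counted 6, 5 and 4 times in Chd8+/+ and 8, 10 and 5 times in Chd8+/-. At P5 its levels were 9.63, 7.99 and 7.04 CPM in Chd8+/+ and 8.91, 8.47 and 10.1 CPM in Chd8+/-. No P5 library overlapped an E12.5 library, where the highest level was 0.224 CPM. The summed ratio of P5 to E12.5 was 79.3 in Chd8+/+ (95% exact binomial interval 47.9 to 142) and 53.1 in Chd8+/- (35.2 to 84.0), and these intervals cover counting error only.

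Apoe, the lipoprotein by which astrocytes export cholesterol, lies at chr7:19696109-19699166 on the minus strand. It stood at 33.0, 31.0 and 27.2 CPM in E12.5 Chd8+/+ and at 27.6, 26.5 and 26.7 CPM in E12.5 Chd8+/-. At P5 it was at 583, 629 and 528 CPM in Chd8+/+ and at 592, 606 and 648 CPM in Chd8+/-. The log2 fold change was 4.25 ± 0.0838 in Chd8+/+ (edgeR adjusted p = 3.34e-15), a 19.1-fold rise, and 4.51 ± 0.0851 in Chd8+/-. Microglia make Apoe as well. Microglial markers summed to 49.9 to 56.7 CPM at E12.5 and to 165 to 219 CPM at P5. Of these 11 markers, 10 rose in Chd8+/+ (median log2 fold change 1.81), where 41.4% of all genes were called higher. Aif1, the least counted of them, had 26 to 36 counts per E12.5 library. Their part in the rise of Apoe was not tested.

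The glutamate transporters rose less than the genes above. Slc1a2 (GLT-1) clears most glutamate in the forebrain, and lies at chr2:102658659-102790784. It was at 90.4, 99.5 and 91.2 CPM in E12.5 Chd8+/+, at 107, 135 and 88.0 CPM in E12.5 Chd8+/-, at 530, 545 and 600.02 CPM in P5 Chd8+/+ and at 461, 551 and 537 CPM in P5 Chd8+/-. The stages were apart in both genotypes, with a log2 fold change of 2.58 ± 0.125 in Chd8+/+ (edgeR adjusted p = 5.7e-11) and 2.23 ± 0.124 in Chd8+/-. Slc1a3 (GLAST), at chr15:8634124-8710764 on the minus strand, is the transporter that radial glia share with astrocytes. Its levels were 95.0, 102 and 102 CPM in E12.5 Chd8+/+, 101, 89.0 and 101 CPM in E12.5 Chd8+/-, 466, 495 and 466 CPM in P5 Chd8+/+ and 429, 471 and 468 CPM in P5 Chd8+/-. It varied little within groups and rose by 2.25 ± 0.0628 on the log2 scale in Chd8+/+ (adjusted p = 1.04e-13) and by 2.23 ± 0.0628 in Chd8+/-.

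Glul, glutamine synthetase, converts the glutamate taken up by these transporters to glutamine, and lies at chr1:153899944-153909723. It stood at 172, 181 and 189 CPM in E12.5 Chd8+/+ and at 180, 175 and 170 CPM in E12.5 Chd8+/-. At P5 it was at 353, 364 and 444 CPM in Chd8+/+ and at 343, 345 and 379 CPM in Chd8+/-. All P5 libraries were above all E12.5 libraries. The rise, 1.10 ± 0.0775 on the log2 scale in Chd8+/+ (edgeR adjusted p = 4.74e-09) and 1.02 ± 0.0774 in Chd8+/-, was the smallest of the 9.

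Gja1, connexin 43, which couples astrocytes and also radial glia through gap junctions, lies at chr10:56377300-56390419. Its levels were 144, 136 and 144 CPM in E12.5 Chd8+/+, 136, 153 and 150.04 CPM in E12.5 Chd8+/-, 144, 143 and 142 CPM in P5 Chd8+/+ and 123, 137 and 144 CPM in P5 Chd8+/-. The stages overlapped in both genotypes. In Chd8+/+ the log2 fold change was 0.016 (95% confidence interval -0.10 to 0.13; edgeR adjusted p = 0.793), so that a change of more than 1.10-fold either way is outside the interval. In Chd8+/- it was -0.12 (interval -0.24 to -0.0045; adjusted p = 0.0516), just above the threshold. Without E12.5 Chd8+/- replicate 1 it was -0.16 (adjusted p = 0.0151) and without P5 Chd8+/- replicate 3 -0.17 (adjusted p = 0.0145). With offsets for gene length it was -0.24 (adjusted p = 0.00059). DESeq2 gave -0.086 (adjusted p = 0.211), and over all the alternatives run the value lay between -0.24 and -0.062, with an adjusted p of up to 0.303.

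**Figure D2:**
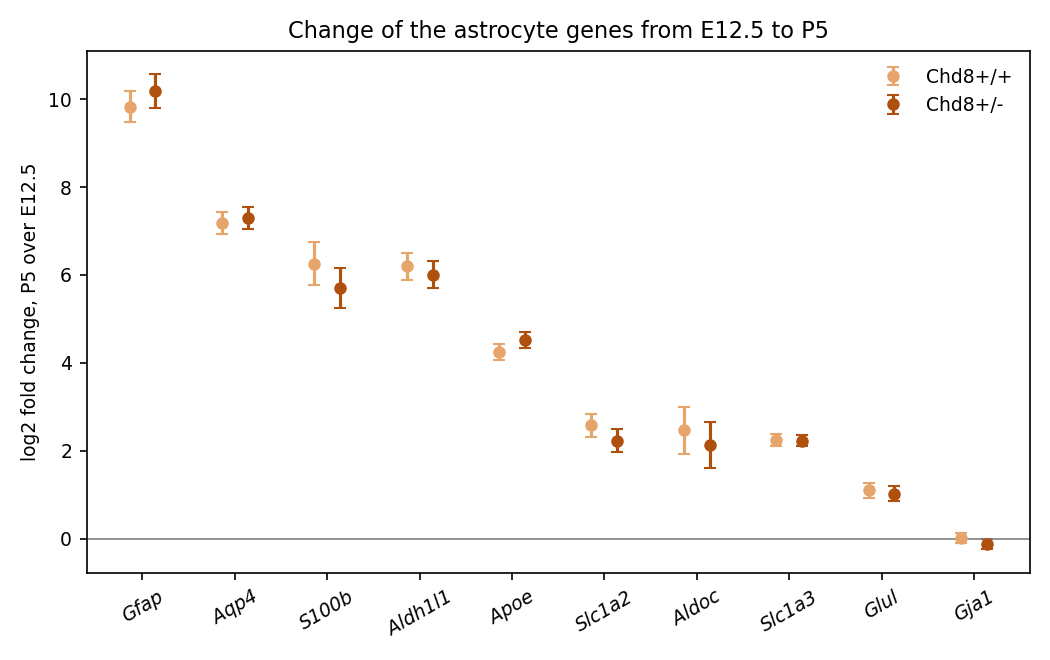
Log2 fold change from E12.5 to P5 of each astrocyte gene in Chd8+/+ (light) and Chd8+/- (dark) neocortex, with 95% confidence intervals from edgeR. The changes run from 9.83 for Gfap to 0.016 for Gja1 in Chd8+/+, and the intervals of the genotypes overlap for each gene.

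Aldoc, the brain aldolase of glycolysis, lies at chr11:78322968-78327781 and varied most between replicates at E12.5 among the members with more than 100 counts in each library. It was at 28.3, 42.0 and 31.6 CPM in E12.5 Chd8+/+ and at 49.1, 20.6 and 52.6 CPM in E12.5 Chd8+/-. At P5 it was at 171, 184 and 205 CPM in Chd8+/+ and at 171, 179 and 184 CPM in Chd8+/-. The stages did not overlap, and the log2 fold change was 2.46 ± 0.245 in Chd8+/+ (edgeR adjusted p = 2.54e-07) and 2.13 ± 0.242 in Chd8+/-. The coefficient of variation in E12.5 Chd8+/- was 43.0%, against a median of 6.53% over the genes tested.

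Neurod6 and Neurod2, transcription factors of newly formed cortical excitatory neurons, shared their lowest E12.5 library with Aldoc. They were singled out after their values were seen. Neurod6 was at 68.3, 104 and 78.5 CPM in E12.5 Chd8+/+ and at 126, 47.6 and 120 CPM in E12.5 Chd8+/-. Neurod2 was at 47.7, 60.7 and 47.0 CPM and at 71.2, 32.0 and 63.9 CPM in the same libraries. E12.5 Chd8+/- replicate 2 was the lowest of the 6 libraries for all 3 genes, and Chd8+/- replicates 1 and 3 were the 2 highest, in differing order. Slc1a3, Aqp4 and Apoe were also lowest in replicate 2, whereas Slc1a2, Gja1 and S100b had their highest E12.5 value there. That library also had the highest E12.5 sums of meningeal (1061.5 CPM), choroid plexus (175.5 CPM) and oligodendrocyte lineage markers (163.6 CPM). Its sum of cortical excitatory neuron markers, 471 CPM, was the lowest at E12.5. At P5 Aldoc shared neither its lowest nor its highest library with Neurod6 or Neurod2. Neurod6 at 207 CPM and Neurod2 at 108 CPM were lowest in Chd8+/- replicate 3, where Aldoc was the highest of its group. The parts of neuronal RNA and of RNA from other tissues in the spread of Aldoc were not tested.

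**Figure D3:**
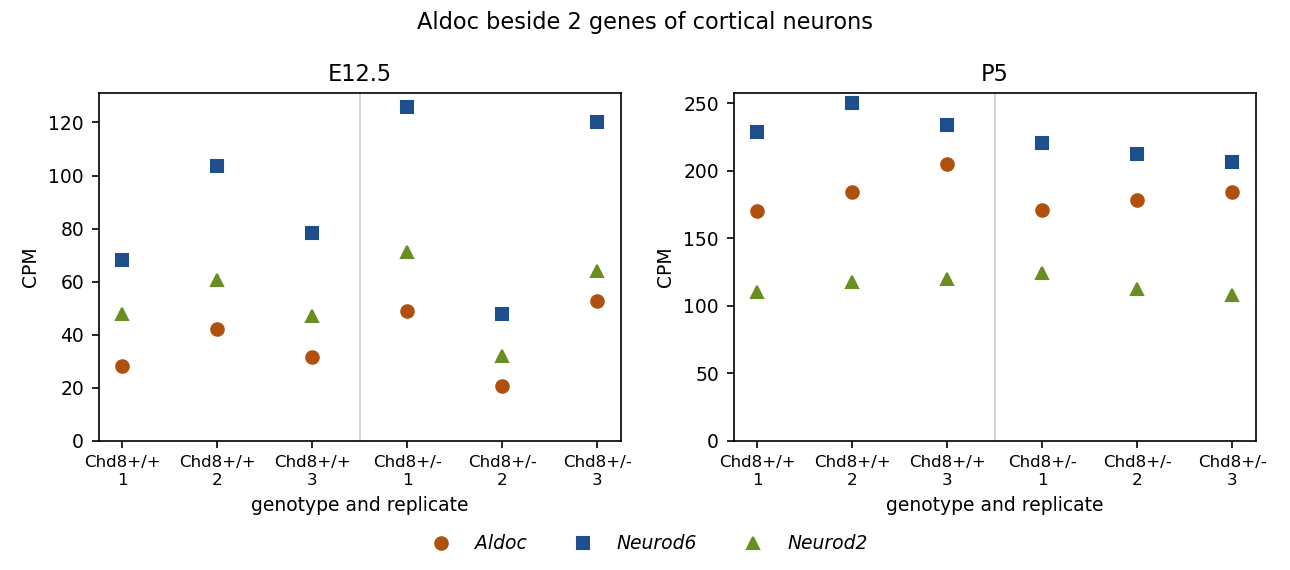
CPM of Aldoc (circles), Neurod6 (squares) and Neurod2 (triangles) in each library at E12.5 (left) and P5 (right), by genotype and replicate. At E12.5 the 3 genes are lowest in Chd8+/- replicate 2, at 20.6, 47.6 and 32.0 CPM.

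The second comparison asks whether loss of 1 Chd8 allele changed these genes. At E12.5 no member was called. Of the 10 genes, 8 passed the filter on low counts, and Gfap and S100b did not. The test covered 18081 genes and called 0.00553% of them, which is Chd8 alone, and 5.15% had an unadjusted p under 0.05. Of the 8 members, 1 had such a p, 4 were higher and 4 lower in Chd8+/-, and the median log2 fold change was 0.0046. The libraries of the genotypes overlapped for each of the 8, where 11.4% of the genes tested did not overlap. DESeq2 called 0.0374% of 13360 genes and none of the 6 members to which it gave an adjusted p, which left out Aldh1l1 and Aqp4 as well.

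Apoe was the member with the unadjusted p under 0.05 at E12.5, with a log2 fold change of -0.18 (95% confidence interval -0.34 to -0.011; edgeR adjusted p = 0.942). The highest Chd8+/- value, 27.6 CPM, was above the lowest Chd8+/+ value of 27.2 CPM. Precision differed between members. For Glul the interval of the log2 fold change ran from -0.16 to 0.059, for Gja1 from -0.065 to 0.16 and for Slc1a3 from -0.18 to 0.096. For Aldoc it ran from -0.40 to 0.93 and for Aldh1l1 from -0.21 to 0.80, and the interval for Aldoc reaches 1.90-fold. Slc1a2 stood at 0.23 (-0.055 to 0.52) and Aqp4 at -0.13 (-0.59 to 0.32). For the sums of Gfap and S100b reads, the ratio of Chd8+/- to Chd8+/+ was 0.765 (95% exact binomial interval 0.386 to 1.49) and 1.66 (0.828 to 3.41). These 2 intervals cover counting error only, not the spread between libraries.

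At P5 all 10 members were tested and 0 were called by edgeR or by DESeq2. edgeR called 0.00536% of 18666 genes, again Chd8 alone, and 17.8% had an unadjusted p under 0.05, whereas 0 of 10 members did. DESeq2 called 5.28% of 12362 genes. The genotypes overlapped for each of the 10 members, where 23.4% of the genes tested did not overlap. In Chd8+/- 3 members were higher and 7 lower, and their median log2 fold change was -0.029.

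S100b was at 0.17 in Chd8+/- relative to Chd8+/+ at P5 on the log2 scale (95% confidence interval -0.088 to 0.43), Aldh1l1 at 0.12 (-0.044 to 0.28) and Apoe at 0.10 (-0.030 to 0.23). Glul was at -0.11 (-0.28 to 0.070), Slc1a2 at -0.097 (-0.25 to 0.052), Gja1 at -0.072 (-0.18 to 0.039), Aldoc at -0.055 (-0.19 to 0.083), Slc1a3 at -0.044 (-0.14 to 0.055), Gfap at -0.013 (-0.19 to 0.16) and Aqp4 at -0.0021 (-0.16 to 0.16). The lowest p was that of Apoe (edgeR adjusted p = 0.404). Across the 10 intervals, a fall below 0.823-fold or a rise above 1.35-fold lies outside every one, although smaller differences do not.

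**Figure D4:**
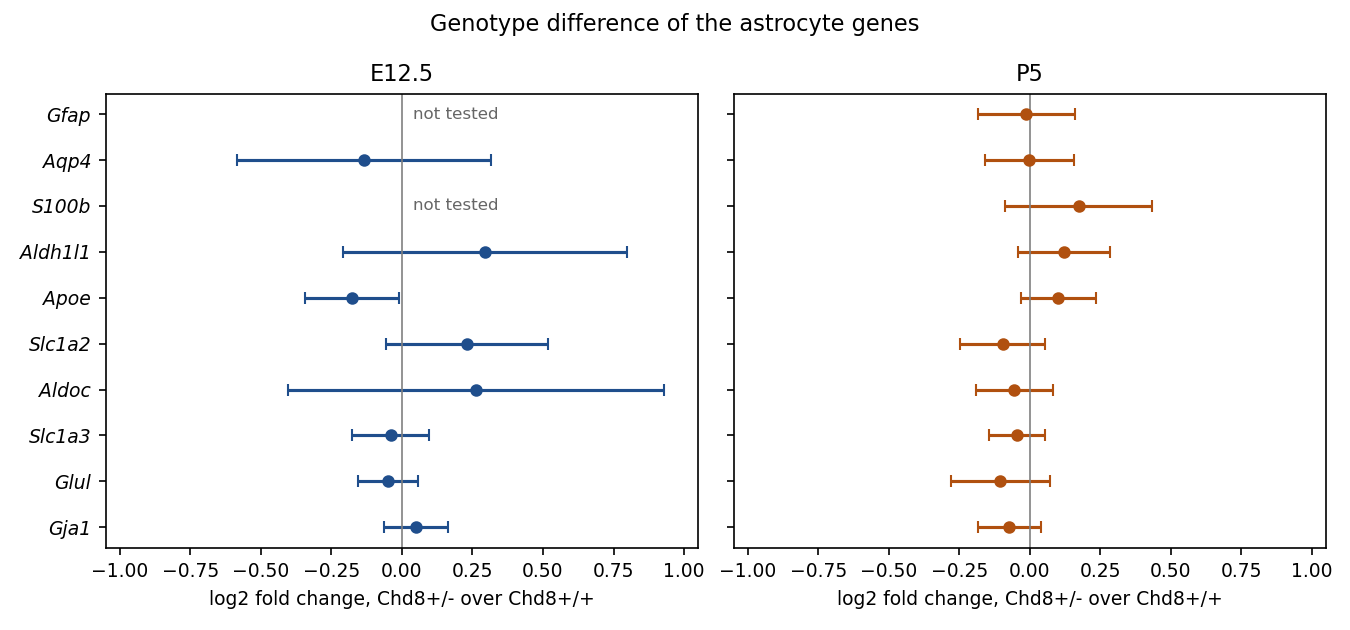
Log2 fold change of each astrocyte gene in Chd8+/- relative to Chd8+/+ at E12.5 (left) and P5 (right), with 95% confidence intervals from edgeR. Gfap and S100b did not pass the filter on low counts at E12.5, the intervals at P5 include 0 for all 10 genes, and at E12.5 only that of Apoe does not.

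Much of the spread at P5 lay between libraries of one genotype. Chd8+/- replicate 1 was the lowest of its group for 8 members, all but Aldh1l1 and S100b, and replicate 3 was the highest for 8, all but Slc1a2 and Slc1a3. Without replicate 1 the median log2 fold change of the members was 0.030, and without replicate 3 it was -0.069. In Chd8+/+, replicate 3 was the lowest for Aldh1l1, Aqp4, Gja1, S100b and Apoe and the highest for Slc1a2, Aldoc and Glul. The members therefore did not move as 1 block between the wildtype libraries.

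The interaction asks whether the genotype difference itself differed between the stages. Of 19676 genes 0% were called by edgeR and 10% had an unadjusted p under 0.05. No member was called by edgeR or by DESeq2, which tested 9, and 1 of 10 had an unadjusted p under 0.05 in edgeR. This was Apoe, whose mean in Chd8+/- lay below that in Chd8+/+ at E12.5 and above it at P5, with an interaction of 0.26 ± 0.106 on the log2 scale (edgeR adjusted p = 0.453). Slc1a2 had the opposite sign, at -0.34 ± 0.168 (edgeR adjusted p = 0.51). In DESeq2 the unadjusted p was 0.0162 for Apoe and 0.0275 for Slc1a2 (adjusted p = 0.300 and 0.356). Gfap and S100b are among the 10 although they did not pass the filter at E12.5.

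A further 30 genes enriched in astrocytes were counted as the setting of these members. In Chd8+/+, 28 of 30 rose from E12.5 to P5, where 41.4% of all genes were called higher and 41.7% lower. Fgfr3 fell and Plpp3 did not pass the test, and the median log2 fold change was 3.29, near that of the members. The largest rises were those of Hepacam, an adhesion protein at astrocyte junctions, from 0.118 ± 0.0681 to 51.9 ± 4.75 CPM (log2 fold change 8.74, edgeR adjusted p = 2.76e-15), and of Agt, angiotensinogen, from 0.0350 ± 0.0241 to 14.98 ± 2.42 CPM (8.64, adjusted p = 5.1e-13). Hepacam had only 2 to 9 counts and Agt 1 to 3 counts in each E12.5 Chd8+/+ library, so that the sizes and order of these rises are imprecise. Fgfr3, a receptor shared with radial glia, fell from 231 ± 23.2 to 68.9 ± 5.98 CPM (-1.75, adjusted p = 5.83e-12). At P5 the genotypes gave 0 calls among the 30, and 3 had an unadjusted p under 0.05, as did 17.8% of all genes tested. Ntsr2 stood at a positive value in Chd8+/- (0.24 ± 0.068, edgeR adjusted p = 0.13) and Fam107a at a negative one (-0.99 ± 0.274, adjusted p = 0.129). The Chd8+/+ libraries of Fam107a ranged from 16.7 to 36.9 CPM.

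Regulators of astrocyte fate, among them NFI and STAT factors and genes of the BMP, cytokine and Notch branches, were counted as a list of 25. Of 24 tested, 9 rose and 13 fell in Chd8+/+, where 41.4% of all genes were called higher and 41.7% lower, and the median of the log2 fold changes was -0.36. Nfix, a nuclear factor I gene, rose from 113 ± 4.86 to 483 ± 19.1 CPM (4.28-fold, edgeR adjusted p = 4.17e-09), and the ligand Bmp2 from 1.76 ± 0.159 to 6.45 ± 0.0541 CPM (log2 fold change 1.87, adjusted p = 6.1e-08). The related Nfia and Nfib, named after their values were seen, fell by 1.11 (adjusted p = 7.48e-08) and 0.77 (adjusted p = 3.07e-05) on the log2 scale. Hes1, a Notch target that holds progenitors undifferentiated, fell from 37.9 ± 2.19 to 7.12 ± 1.19 CPM (-2.41, adjusted p = 4.18e-12). Sox9, a glial determinant also made by progenitors, fell from 123 ± 17.3 to 23.3 ± 1.85 CPM (-2.41, adjusted p = 5.62e-12). Between genotypes at P5 there were 0 calls by edgeR or DESeq2 and 5 of 23 had an unadjusted p under 0.05, again beside 17.8% of all genes. The smallest p values belonged to Jak2, the kinase upstream of STAT3, with a negative value in Chd8+/- (-0.15 ± 0.0377, edgeR adjusted p = 0.116), and Hes5, with a positive value (0.22 ± 0.0636, adjusted p = 0.133).

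**Figure D5:**
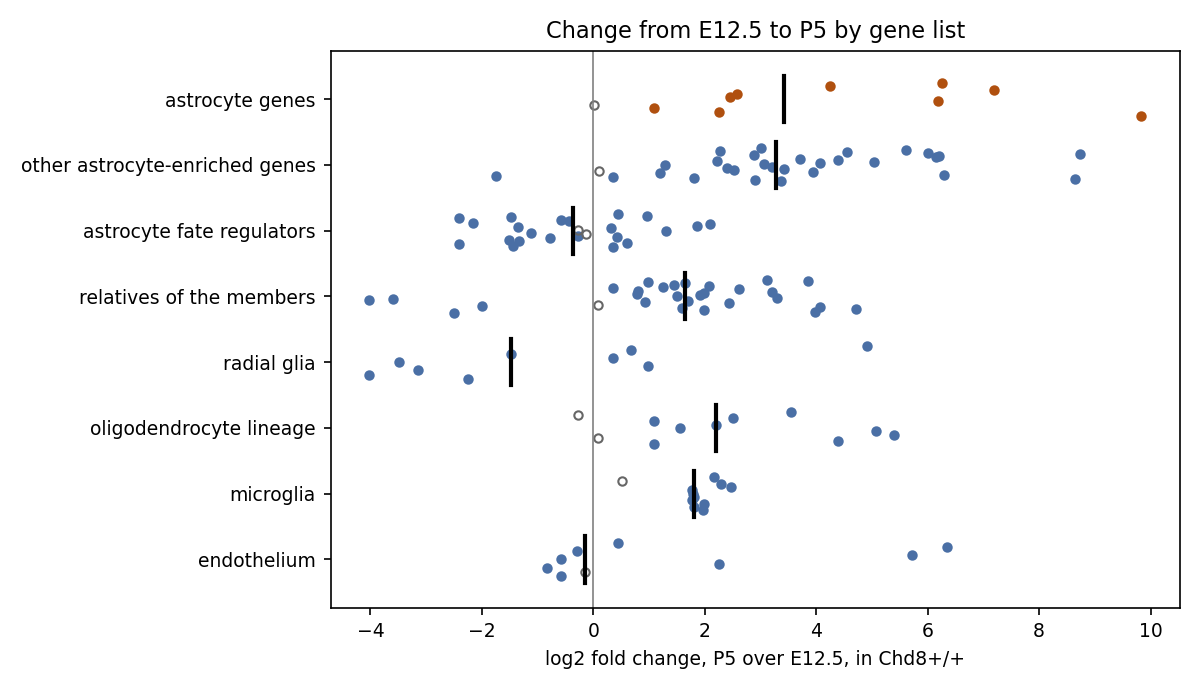
Log2 fold change from E12.5 to P5 in Chd8+/+ of each gene tested in 8 lists (points, filled where the adjusted p was under 0.05), with the median of each list (bars). The median is 3.41 for the astrocyte genes, 3.29 for other astrocyte-enriched genes, -0.36 for fate regulators and -1.47 for radial glia genes.

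Relatives of the members changed by stage in 28 of 29 cases tested, 24 up and 4 down, where 41.4% of all genes were called higher and 41.7% lower. The intermediate filaments parted. Vim and Nes, the filaments of radial glia, fell from 234 to 19.5 RPKM (log2 fold change -3.59, edgeR adjusted p = 9.06e-16) and from 129 to 7.95 RPKM (-4.02, adjusted p = 1.17e-14) while Gfap rose, so that at P5 Gfap at 36.8 RPKM exceeded both. Among glutamate transporters, the neuronal Slc1a1 rose from 0.471 to 12.4 RPKM (4.72, adjusted p = 2.04e-15), more than Slc1a2 and Slc1a3. Slc1a5, a neutral amino acid transporter, fell from 9.04 to 1.60 RPKM (-2.49, adjusted p = 3.05e-12). Among connexins, Gja4 stood at 0.087 (adjusted p = 0.518), like Gja1 without a call, and Gja5, which belongs to arterial endothelium, fell (-2.00, adjusted p = 8.36e-07). Aldoa, the ubiquitous aldolase, was above Aldoc at both stages, at 100.04 RPKM at E12.5 and 174 RPKM at P5, with a smaller change (0.80, adjusted p = 5.19e-10). Clu, another secreted lipoprotein of astrocytes, rose like Apoe, from 3.22 to 54.0 RPKM (4.07, adjusted p = 6.28e-15).

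Between genotypes at P5, edgeR called 0 of 29 relatives, with 11 at an unadjusted p under 0.05 (17.8% of all genes, also for the marker lists that follow), and DESeq2 called 6 of the 22 it tested against 5.28% of all genes it tested, 4 higher and 2 lower in Chd8+/-. The higher ones were the S100 genes S100a13, S100a16 and S100a10 and the connexin Gjb2. S100a13 went from 6.28 ± 0.631 to 8.70 ± 0.483 CPM (0.48 ± 0.0951, edgeR adjusted p = 0.095, DESeq2 adjusted p = 0.00527), S100a16 from 36.7 ± 3.65 to 44.2 ± 2.92 CPM (0.29 ± 0.0735, 0.118 and 0.008) and S100a10 from 58.7 ± 2.95 to 67.5 ± 4.47 CPM (0.22 ± 0.0546, 0.116 and 0.0131). S100a13, S100a16 and S100a10 did not overlap between the genotypes, as 23.4% of the genes tested did not, while S100b did. The lower ones were Aqp1 and Lrp1. Aqp1, the water channel of the choroid plexus, went from 8.88 ± 1.56 to 5.79 ± 0.904 CPM (-0.60 ± 0.142, adjusted p 0.113 and 0.00406) and Lrp1, a receptor for Apoe, from 623 ± 2.15 to 559.5 ± 24.3 CPM (-0.14 ± 0.0389, adjusted p 0.129 and 0.0204). Choroid plexus markers summed to 454 to 587 CPM in P5 Chd8+/+ and 332 to 391 CPM in P5 Chd8+/-, with all 10 lower (median log2 fold change -0.60, 7 at an unadjusted p under 0.05, 3 of 4 tested called by DESeq2), and Aqp1 is on that list. Striatal markers summed to 251 to 274.9 and 180 to 224 CPM, with all 8 lower (median -0.30, 8 at such a p, 6 of 8 called by DESeq2). Endothelial markers summed to 305 to 349 and 265 to 305 CPM, with 8 of 9 lower (median -0.22, 7 at such a p, 4 of 9 called by DESeq2). Meningeal markers summed to 340 to 373 and 323 to 420 CPM, with 8 of 9 higher (median 0.13, 1 at such a p, 0 of 9 called by DESeq2). The part of these tissues in the genotype values of the members and their relatives was not tested, and the summed level of the members overlapped, at 689 to 725 RPKM and 665 to 742 RPKM.

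Markers of other glia gave the setting by stage. Of 11 oligodendrocyte lineage genes 9 rose in Chd8+/+ and 0 fell (median log2 fold change 2.20), where 41.4% of all genes were called higher and 41.7% lower. Their summed level went from 125 to 139 CPM to 493 to 528 CPM. The defining gene of myelinating cells Mag had 6 to 9 counts in each E12.5 library. Of 9 radial glia genes 4 rose and 5 fell, against the same 41.4% and 41.7% of all genes, and their sum went from 2027 to 2195 CPM to 1409 to 1684 CPM. The largest fall was that of Nes and the next that of Pax6 (-3.48, edgeR adjusted p = 7.73e-16), and the largest rise that of Tnc (4.92, adjusted p = 1.33e-09). The highest of these genes at P5 in Chd8+/+ were Ptprz1 at 772 CPM, Fabp7 at 465 CPM and Tnc at 178 CPM, which had all risen. Nes, Sox2, Prom1, Pax6 and Hes5, which had fallen, stood at 51.0, 46.0, 15.1, 13.6 and 13.2 CPM. The P5 sum is thus mostly that of genes that rose.

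The genes most like the members over the 12 libraries were found by the correlation of their log2 CPM with the mean standardised profile of the 10 members. Among 10814 genes with a mean of at least 10 CPM they were Rnf11, Ncoa7, Uhmk1, Rcan3 and 2610002M06Rik, each with r = 0.997. This profile is mostly the difference between the stages, and 973 of these genes, 9.0%, had an r above 0.99. Rnf11 went from 87.5 ± 1.54 to 183 ± 6.49 CPM in Chd8+/+, Ncoa7 from 19.5 ± 1.41 to 60.2 ± 1.47 CPM and Rcan3 from 35.2 ± 0.321 to 104 ± 1.46 CPM. Likeness over these libraries therefore does not single out astrocyte genes.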

How the data were processed

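RNA of 12 neocortex libraries was measured. Per the labels and the study's methods, the authors selected mRNA, made dUTP libraries, sequenced them paired-end on 2 lanes, trimmed reads with Trim Galore 0.4.1, aligned them to GRCm38.p4 with TopHat2 2.1.0 and counted them with featureCounts 1.5.0. The deposited values are raw counts per Ensembl gene and run, and the counting command in the P5 table sets no strand. A read that falls on exons of several genes is left out by that program's default. Symbols were found for 46005 of 46603 genes.

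The 2 runs of a library were summed. Tests used edgeR 4.0.16 under R 4.3.3 (TMM, default filterByExpr, quasi-likelihood test, Benjamini-Hochberg threshold 0.05), genotype within each stage and stage or interaction in 1 model of 12 libraries. CPM and RPKM use TMM library sizes over the 12 libraries. Intervals are at 95%. DESeq2 1.42.0, limma-voom (limma 3.58.1) and other settings were alternatives, and the procedure was tested on simulated data.

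Named were the 10 members, of each list the genes with the largest called stage changes and the smallest genotype p in each direction, and family relatives. Members and lists were chosen with earlier results of these data known.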

Additional observations from a re-analysis of the deposited data

How the results depend on the processing

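Members called stayed at 0 for both genotype comparisons and the interaction, and at 9 for the stage in Chd8+/+, under every alternative run. In Chd8+/- they were 9 or 10, the tenth being Gja1, which was called lower with a threshold of 0.1, with offsets for gene length, with the replicate block, with a covariate for high Xist counts (1 library per group, added after seeing the data) and without 2 of the libraries. Counts over all genes moved more. At E12.5, 1 gene was called, against 5 by DESeq2, 13 without a filter on low counts, 2 with all 12 libraries in the fit, 0 with the Xist covariate, and 0 to 2 with a library left out. At P5, 1 was called, against 136 at a threshold of 0.1, 653 by DESeq2, 995 without a filter, 4 with all 12 libraries, and 1 to 327 with a library left out, the highest without Chd8+/- replicate 2. The median stage change of the members in Chd8+/+ was 3.45 by DESeq2, 3.46 with RLE scaling, 3.45 with upper-quartile scaling, 3.34 with offsets for gene length and 3.37 to 3.45 with a library left out. With the replicate block, 0 genes were called at E12.5 and 4 at P5 and no member's genotype call changed. Same-numbered libraries correlated at -0.23, -0.10 and -0.091 at E12.5 and 0.23, 0.11 and 0.043 at P5 in their deviations from group means. Other pairings ranged from -0.099 to 0.21 at E12.5 and from -0.19 to 0.10 at P5. At P5 each Chd8+/+ library thus correlated most with the Chd8+/- library of its number, which was not so at E12.5. The labels give no pairs, and the numbers were not taken to pair samples in the main fits. The cause of these movements was not tested. Depth limits Gfap and S100b at E12.5, with at most 10 counts per library, and both got a genotype value there only by DESeq2, without the filter and with all 12 libraries.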
